A study of Mus musculus with 7 samples.

Results

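The neurotrophin and GDNF (glial cell line-derived neurotrophic factor) families were taken as 9 named genes: the Trk receptor genes Ntrk2 and Ntrk3, the p75 receptor gene Ngfr, the receptor gene Ret, its coreceptor genes Gfra1, Gfra2 and Gfra3, and the ligand genes Ntf3 and Bdnf. They were found by symbol among the 14732 genes with deposited values. Of the 9 genes, 8 were listed, and Gfra3 was not. A gene was listed only where it reached 1 CPM (a gene's reads after scaling all pools to the same size) in 3 or more pools, so the 8 genes are those of the family that passed a filter on low values. The family was chosen with the genotype contrast described here already known, and Ntrk2 had been named by the study for that contrast. The differences between genotypes are therefore given for the members as a description, without a test. Where a fit across all genes called a member, this is stated, and nothing is read from it.

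Mouse embryos at embryonic day 11.5 provided outflow tracts (OFTs) for RNA-seq. The OFT is the segment of the embryonic heart that connects the ventricles with the aortic sac. There were 3 pools of WT embryos (replicates 3, 4 and 5), called control below, and 4 pools of Gata6STOP/+ embryos (replicates 1, 3, 4 and 5, labelled MUT). Gata6STOP/+ embryos are heterozygous for an early stop codon in Gata6, a zinc finger transcription factor gene. The stop was introduced in the germline with CRISPR-Cas9, so it is present in every cell type, and the line descends from a selected founder crossed to C57BL/6 mice. No treatment is named for either group. According to the methods, a pool held 4 pairs of OFTs, and 3 pools were made per genotype, whereas the labels give 7 pools in all, and each of these was used. A resource list of the study names Mib1 alleles next to the Gata6STOP line. Whether the pooled embryos carried them is not given in the sources used here. Embryos within a pool cannot be told apart, and the labels do not say whether pools came from separate litters.

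The Gata6STOP/+ pools held 24736761 to 34467710 reads on listed genes and the control pools 17783655 to 29035529. Gata6 itself was at 286±28.9 CPM in control pools (s.d., n=3) and at 227±28.7 CPM in Gata6STOP/+ pools (s.d., n=4), with overlapping ranges, since Gata6STOP/+ replicate 1 (268 CPM) lay above control replicate 4 (257 CPM). All 8 genes chosen as markers of outflow myocardium and all 8 of cushion mesenchyme were listed, as were all 5 of smooth muscle. Gata6STOP/+ replicate 1 stood apart in the myocardial markers, because it had the lowest value of the 7 pools for 8 of the 8 genes. Their summed level was 13171 CPM in that pool, and 16136 to 18377 CPM in the other 6 pools. For the members that were highest in this pool, the difference is also given without it. Another pool, Gata6STOP/+ replicate 5, had the highest value of the 7 pools for 9 of the 9 genes chosen as markers of red cells.

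Neurotrophins are small secreted dimers that keep neurons alive and guide their axons. Brain-derived neurotrophic factor, encoded by Bdnf, and neurotrophin-4, encoded by Ntf5, bind the receptor tyrosine kinase TrkB (Ntrk2). Neurotrophin-3 (Ntf3) binds mainly TrkC (Ntrk3), and all neurotrophins bind p75 (Ngfr), a receptor of the tumour necrosis factor receptor superfamily without a kinase domain. Ligands of the GDNF family act differently: each first binds a membrane-anchored Gfra coreceptor, and the complex then activates the kinase Ret. In the embryonic heart these genes are best known from neural crest cells and the autonomic neurons and glia that arise from them, although Bdnf and TrkB also act on endothelial cells, and neurotrophin-3 and TrkC are required for normal septation of the heart and its great vessels.

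The stretches of DNA before the start sites of 2 members are shown because the mutated gene encodes a GATA factor, and because the mean levels of this receptor and its ligand lay on opposite sides of the control means. They were read from RefSeq promoter entries (build GRCm38.p6, plus strand) and searched on both strands over the 250 bases before each start site for GATAA and for GATAG, each with A or T before it. Entries were found for 5 members (Ntrk2, Ngfr, Gfra1, Ntf3 and Bdnf), with 12 start sites, and those of Ntrk3, Ret and Gfra2 were not matched. Of the 12 entries, 4 held a match, and all 4 belonged to Bdnf. The entries of Bdnf were start sites 1 to 7 and those of Ntf3 start sites 1 and 2. Ntrk2, Ngfr and Gfra1 had a single entry each, so the members were not searched over equal lengths. Of the 32851 entries of the genome, 26.5% held a match in a stretch of the same length. The single Ntrk2 entry is printed over all 250 bases. For Bdnf, the 60 bases around each match are printed, with the matched letters, which lie 233, 86, 222 and 57 bases before start sites 3, 4, 6 and 7, in capitals.
Ntrk2, chr13:58806319-58806568: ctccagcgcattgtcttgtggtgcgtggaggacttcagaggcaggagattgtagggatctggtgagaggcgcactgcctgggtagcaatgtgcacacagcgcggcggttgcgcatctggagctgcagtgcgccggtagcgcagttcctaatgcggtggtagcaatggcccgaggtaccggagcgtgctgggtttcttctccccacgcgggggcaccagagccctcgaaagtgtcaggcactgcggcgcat
Bdnf start site 3, chr2:109692186-109692245: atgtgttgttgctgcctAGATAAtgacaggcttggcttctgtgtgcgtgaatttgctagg
Bdnf start site 4, chr2:109692914-109692973: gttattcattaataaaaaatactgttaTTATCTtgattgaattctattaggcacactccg
Bdnf start site 6, chr2:109709134-109709193: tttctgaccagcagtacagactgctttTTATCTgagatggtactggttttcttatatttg
Bdnf start site 7, chr2:109722837-109722896: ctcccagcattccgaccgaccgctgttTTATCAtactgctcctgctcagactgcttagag
In the Ntrk2 stretch none of these motifs was found, which says only that these letters are not in this window. A match is a description of letters and not of a bound site. The values below give 1 number per gene, so the start sites of Bdnf could not be told apart.

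Ntrk2 (ENSMUSG00000055254, GRCm38 chr13:58806569-59133970, plus strand, 10 annotated transcripts of which 7 are coding) encodes TrkB. The study lists it under chemotaxis, a function described there as depleted in Gata6STOP/+ OFTs. Its main text gives no direction for this gene. The control pools were at 11.7, 13.2 and 16.2 CPM (replicates 3, 4 and 5), and the Gata6STOP/+ pools at 44.7, 19.4, 26.0 and 30.8 CPM (replicates 1, 3, 4 and 5). Each Gata6STOP/+ pool lay above each control pool, with the smallest gap between Gata6STOP/+ replicate 3 and control replicate 5. The means were 13.7±2.34 CPM (s.d., n=3) and 30.2±10.7 CPM (s.d., n=4), a ratio of 2.21, resting on 243 to 1273 reads per pool. On the log2(CPM+0.5) scale the difference was 1.06 with a standard error of 0.224. It was 0.86 without Gata6STOP/+ replicate 1 and 1.25 without replicate 3, the lowest and highest values with 1 pool left out. Whether more cells expressed the gene or cells expressed more of it cannot be told apart in pooled tissue. The gene makes a full-length receptor and truncated forms that lack the kinase domain, and a value per gene joins them.

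Ntrk3 (ENSMUSG00000059146, chr7:78175959-78738012, minus strand) encodes TrkC, the receptor of neurotrophin-3. Control pools were at 15.8, 23.3 and 18.8 CPM and Gata6STOP/+ pools at 38.3, 15.2, 29.3 and 20.8 CPM, in the order of replicates used above. The groups overlapped, because Gata6STOP/+ replicate 3 had the lowest value of the 7 pools and replicate 1 the highest. The means were 19.3±3.77 and 25.9±10.1 CPM, and the log2 difference was 0.35 (standard error 0.256). Without Gata6STOP/+ replicate 1 it was 0.14, and without replicate 3 it was 0.58, so the size of this difference depended on single pools.

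Ngfr (ENSMUSG00000000120, chr11:95568818-95587735, minus strand), the p75 gene and a frequent label of migrating neural crest, was at 26.5, 24.7 and 21.4 CPM in control pools and at 30.2, 20.1, 31.0 and 23.5 CPM in Gata6STOP/+ pools. Both the highest and the lowest pool were Gata6STOP/+, replicates 4 and 3. The means of 24.2±2.57 and 26.2±5.28 CPM differed by 0.09 on the log2 scale (standard error 0.144). This small difference was 0.019 without Gata6STOP/+ replicate 1, and it ranged from 0.0078 without Gata6STOP/+ replicate 4 to 0.21 without replicate 3.

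**Figure D1:**
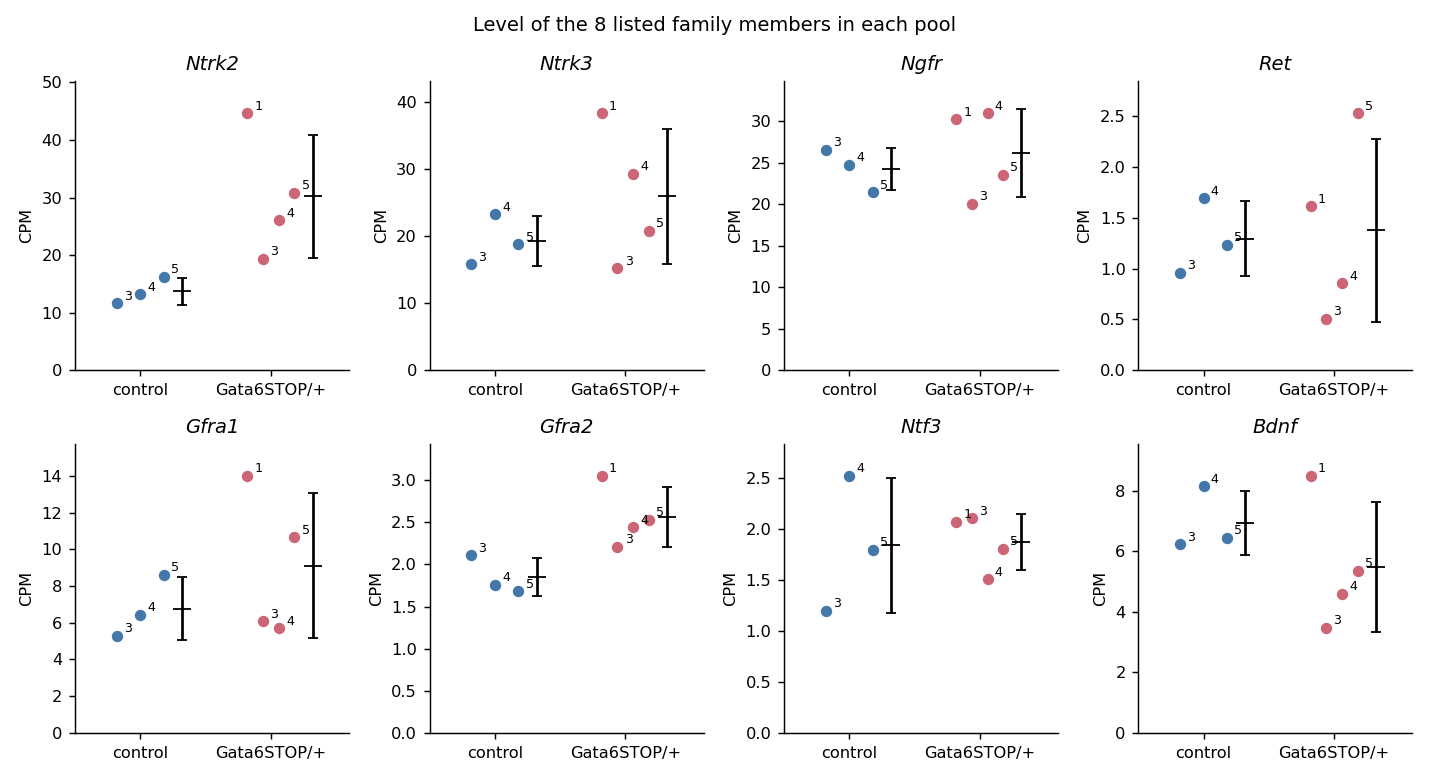
CPM of the 8 listed members in each pool, 1 panel per gene with its own axis from 0, blue for the 3 control pools and red for the 4 Gata6STOP/+ pools, each numbered by its replicate; bars show mean±s.d. Ntrk2 and Gfra2 are the members whose groups do not overlap, and Gata6STOP/+ replicate 1 is the highest pool in 5 panels.

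Ret (ENSMUSG00000030110, chr6:118151745-118197718, minus strand), the signalling receptor of the GDNF family, had few reads, 14 to 87 per pool. Control pools were at 0.959, 1.69 and 1.23 CPM and Gata6STOP/+ pools at 1.61, 0.507, 0.854 and 2.53 CPM. The Gata6STOP/+ pools held both the lowest value (replicate 3) and the highest (replicate 5). The mean was 1.29±0.370 CPM in control and 1.38±0.897 CPM in Gata6STOP/+ pools, whereas the log2 difference was -0.04 (standard error 0.344). The mean and the log2 difference thus had opposite signs, and no direction could be given at this depth.

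Gfra1 (ENSMUSG00000025089, chr19:58235604-58455909, minus strand) encodes the coreceptor that binds GDNF. It was at 5.27, 6.42 and 8.62 CPM in control pools and at 14.0, 6.09, 5.70 and 10.6 CPM in Gata6STOP/+ pools. Gata6STOP/+ replicates 1 and 5 lay above all control pools, and replicates 3 and 4 lay within their range. The means were 6.77±1.70 and 9.10±3.96 CPM, with a log2 difference of 0.34 (standard error 0.281) that was 0.11 without replicate 1 and 0.52 without replicate 4.

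Gfra2 (ENSMUSG00000022103, chr14:70890120-70979838, plus strand), the coreceptor of neurturin, was at 2.11, 1.76 and 1.68 CPM in control pools and at 3.05, 2.21, 2.44 and 2.53 CPM in Gata6STOP/+ pools. Each Gata6STOP/+ pool lay above each control pool, but the nearest values, 2.21 and 2.11 CPM, were close, and the gene had 30 to 87 reads per pool. The means were 1.85±0.229 and 2.56±0.356 CPM, and the log2 difference was 0.38 (standard error 0.165), which ranged from 0.30 without Gata6STOP/+ replicate 1 to 0.46 without control replicate 3.

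Of the member ligands, Ntf3 (ENSMUSG00000049107, chr6:126101412-126166910, minus strand) was at 1.20, 2.52 and 1.79 CPM in control pools and at 2.07, 2.10, 1.51 and 1.80 CPM in Gata6STOP/+ pools. All 4 Gata6STOP/+ values lay within the control range. The means were 1.84±0.661 and 1.87±0.277 CPM and the log2 difference was 0.05 (standard error 0.217), or -0.16 without control replicate 3.

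Bdnf (ENSMUSG00000048482, chr2:109674700-109727007, plus strand), the ligand of TrkB, was the 1 member with a lower mean in Gata6STOP/+ pools. Control pools were at 6.23, 8.14 and 6.44 CPM and Gata6STOP/+ pools at 8.49, 3.48, 4.60 and 5.35 CPM. Gata6STOP/+ replicates 3, 4 and 5 lay below every control pool, and replicate 1 lay above them all. The means were 6.94±1.05 and 5.48±2.15 CPM, with a log2 difference of -0.37 (standard error 0.234). It was -0.59 without Gata6STOP/+ replicate 1 and -0.20 without replicate 3.

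**Figure D2:**
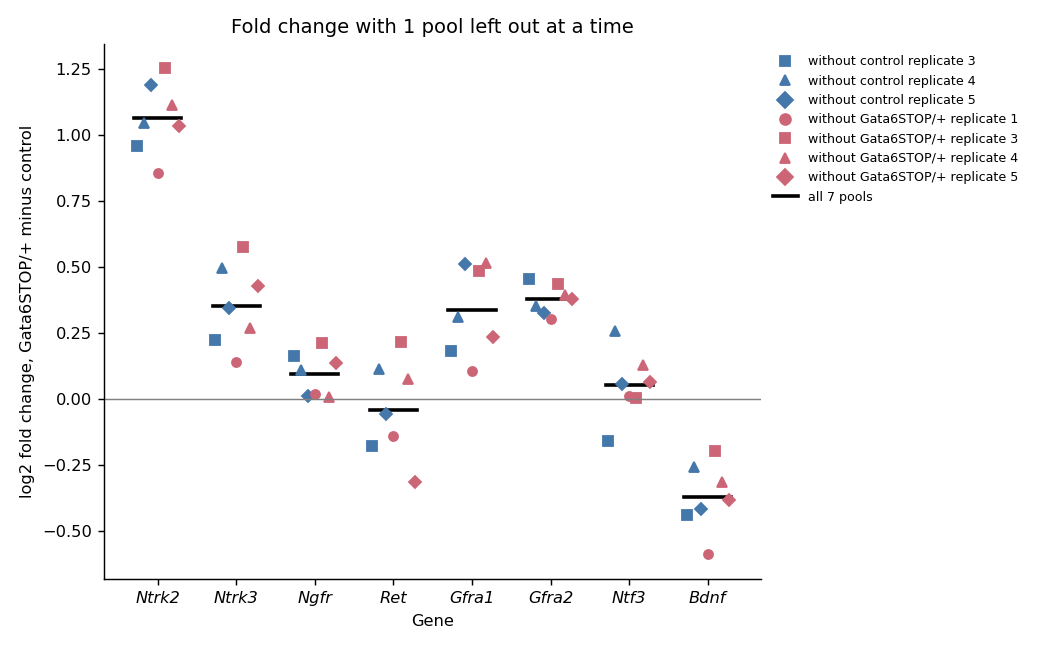
Log2 difference, Gata6STOP/+ minus control, of each member with all 7 pools (black line) and with 1 pool left out (symbols, blue for a control pool and red for a Gata6STOP/+ pool). Ntrk2 stays between 0.86 and 1.25, whereas the symbols of Ret and Ntf3 lie on both sides of 0.

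Across the members, the mean was above the control mean for 7 genes and below it for 1. Every Gata6STOP/+ pool lay above every control pool for 2 members, Ntrk2 and Gfra2, which was so for 4.31% of all listed genes, and the opposite held for no member and for 4.16% of all genes. The groups overlapped for the other 6. Gata6STOP/+ replicate 1 was the highest of the 7 pools for 5 members (Ntrk2, Ntrk3, Gfra1, Gfra2 and Bdnf), and replicate 3 was the lowest Gata6STOP/+ pool for 6. Replicate 1 is also the pool with the lowest myocardial markers, and the part of tissue composition in the members' values was not tested. In the limma fit across all genes, 0 of the 8 members passed the threshold of 0.05 after adjustment, as did 0 of all 14732 genes (0%). Before adjustment, 1187 genes were under 0.05. EdgeR's quasi-likelihood test on the recovered reads also called 0 genes, with 1177 under 0.05 before adjustment. EdgeR's likelihood ratio test called 52 genes higher in Gata6STOP/+ pools, 0.353% of those tested, among them Ntrk2 and no other member. Since the family was chosen on this contrast, nothing is read from these counts about the members.

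Per length of the annotated exons, the members could be ranked against each other. The values below are CPM per kb of the GENCODE M21 exon model, which joins all transcripts of a gene and so lowers the value of genes with long alternative ends. The model was 19.3 kb for Ntrk2 and 30.2 kb for Ntrk3, against 1.71 to 6.76 kb for the other members. Ngfr stood first in control pools, at 7.03±0.745 CPM per kb, and its pools did not overlap those of the next gene. A middle group followed with Gfra1 at 1.24±0.311, Bdnf at 1.12±0.169, Ntf3 at 1.07±0.386, Ntrk2 at 0.710±0.121, Ntrk3 at 0.638±0.125 and Gfra2 at 0.523±0.0646 CPM per kb. Each neighbouring pair in that group overlapped between pools. Farther apart in the order, every control pool of Gfra1 (0.963 to 1.57 CPM per kb) and of Bdnf (1.003 to 1.31) lay above every control pool of Ntrk2 (0.604 to 0.842), Ntrk3 (0.523 to 0.771) and Gfra2 (0.475 to 0.596). In CPM without length, the control means of Ntrk3 (19.3) and Ntrk2 (13.7) lay above those of Bdnf (6.94) and Gfra1 (6.77). The place of the Trk genes in the order thus depended on the length used. Ret was last, at 0.191±0.0547 CPM per kb, below every control value of Gfra2. In Gata6STOP/+ pools Ngfr was again first (7.60±1.53) and Ret last (0.203±0.133), and Ntrk2 stood at 1.57±0.555 CPM per kb, next to Gfra1 at 1.66±0.723.

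**Figure D3:**
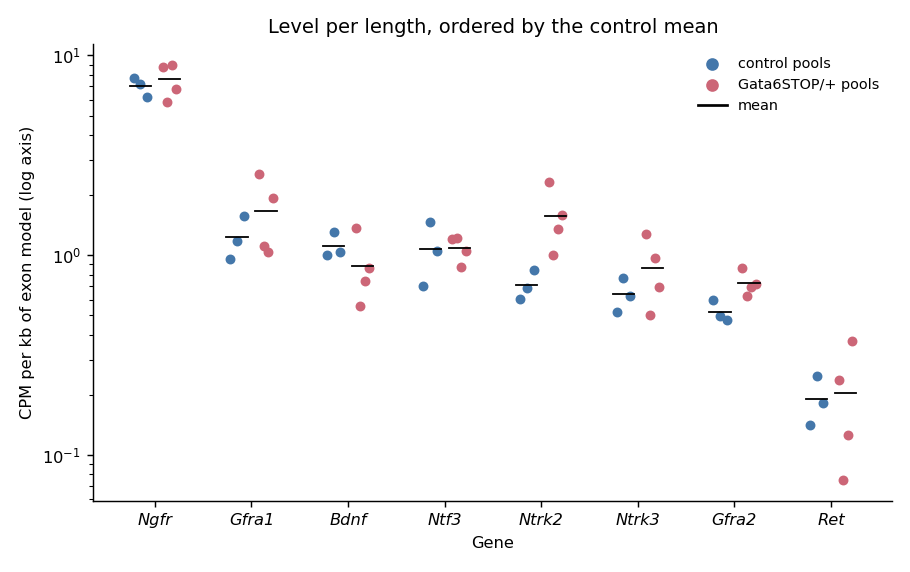
CPM per kb of exon model on a log axis for each control (blue) and Gata6STOP/+ (red) pool, with the mean as a line and genes ordered by the control mean. Ngfr lies well above the other 7 genes in both groups, and Ret lies lowest.

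Ratios between members of the same pool do not depend on the depth or scaling of that pool. These were picked after the values were seen and are given without a test. The ratio of Ntrk2 to Ntrk3, per kb, was 0.886 to 1.35 in control pools and 1.39 to 2.32 in Gata6STOP/+ pools, which did not overlap but nearly met. Ntrk2 over Ngfr was 0.0785 to 0.135 in control and 0.150 to 0.264 in Gata6STOP/+ pools. The ratio of the receptor Ntrk2 to its ligand Bdnf was 0.522 to 0.813 in control pools and 1.70 to 1.86 in the 4 Gata6STOP/+ pools. Although Ntrk2 varied from 19.4 to 44.7 CPM among Gata6STOP/+ pools, this ratio varied little, because Bdnf was highest and lowest in the same pools as Ntrk2. Ntrk3 over Ngfr (0.0680 to 0.108 and 0.0864 to 0.145), Gfra1 over Ret (4.69 to 8.65 and 5.20 to 14.8) and Gfra1 over Gfra2 (1.62 to 3.32 and 1.51 to 2.96) overlapped between genotypes.

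**Figure D4:**
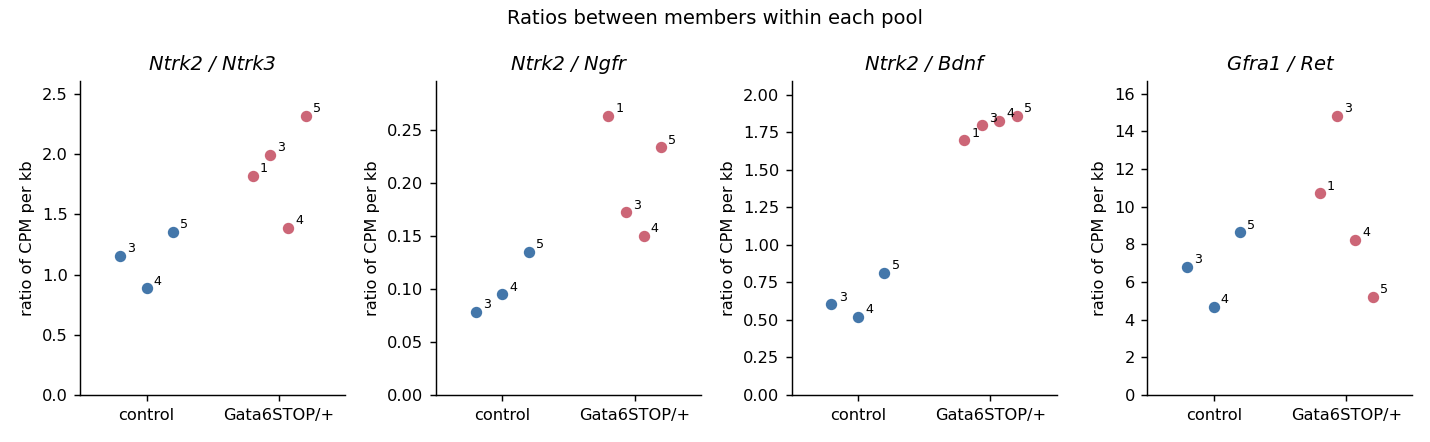
Ratio of CPM per kb between pairs of members in each pool, numbered by replicate, blue for control and red for Gata6STOP/+, with axes from 0. The Ntrk2 to Bdnf ratio is 1.70 to 1.86 in the Gata6STOP/+ pools and at most 0.813 in the control pools, while the Gfra1 to Ret ratios overlap.

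The rest of the pathway was followed in 5 lists chosen by role, of which 75 of 89 genes were listed. None passed the limma threshold in either direction, 38 were higher and 37 lower in Gata6STOP/+ pools, and the median log2 difference was 0.0016, against -0.0007 over all genes. Of the 75 genes, the groups did not overlap for 7 above control (9.33%) and for 4 below (5.33%), against 4.31% and 4.16% of all listed genes. Of 7 other ligands, 2 were listed, and Gdnf, Artn, Pspn and Gdf15 were among those that were not. Ntf5, the neurotrophin-4 gene and thus a second ligand of TrkB, was at 7.77, 7.73 and 9.63 CPM in control pools and at 10.2, 9.53, 9.36 and 9.42 CPM in Gata6STOP/+ pools. These overlapped through control replicate 5, and the log2 difference of 0.20 had an adjusted limma P-value of 0.701. Nrtn, which encodes neurturin, the ligand of Gfra2, was at 1.72±0.380 and 1.52±0.366 CPM (log2 difference -0.14, adjusted limma P-value 0.895).

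Of 17 other receptors and coreceptors, 13 were listed, and Gfral, Rtn4r and Islr2 were among those that were not. Sorcs2, a sortilin-family receptor that binds proneurotrophins together with p75, was lower in each Gata6STOP/+ pool (39.7, 38.3, 40.1 and 41.4 CPM) than in each control pool (47.0, 52.5 and 46.9 CPM). Its log2 difference was -0.29 (standard error 0.066, adjusted limma P-value 0.243), and edgeR's likelihood ratio test gave an adjusted P-value of 0.045. None of the other fits run called it. Lingo1, a p75 partner, was at 7.96, 7.94 and 7.62 CPM in control pools and at 11.5, 8.73, 10.1 and 9.97 CPM in Gata6STOP/+ pools, again without overlap (log2 difference 0.34, adjusted limma P-value 0.451). Kidins220, a scaffold protein phosphorylated by Trk receptors, was at 129±3.14 and 136±3.59 CPM without overlap (log2 difference 0.08, adjusted limma P-value 0.767). The other 10 genes overlapped between groups. Their log2 differences were 0.42 for Sorcs1, 0.35 for Lrig3, 0.12 for the sortilin gene Sort1, 0.08 for Lrig2, -0.01 for Nradd, -0.01 for Ncam1, a coreceptor of GDNF, -0.12 for Gfra4, -0.15 for Sorcs3, -0.16 for Lrig1 and -0.19 for Sdc3.

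**Figure D5:**
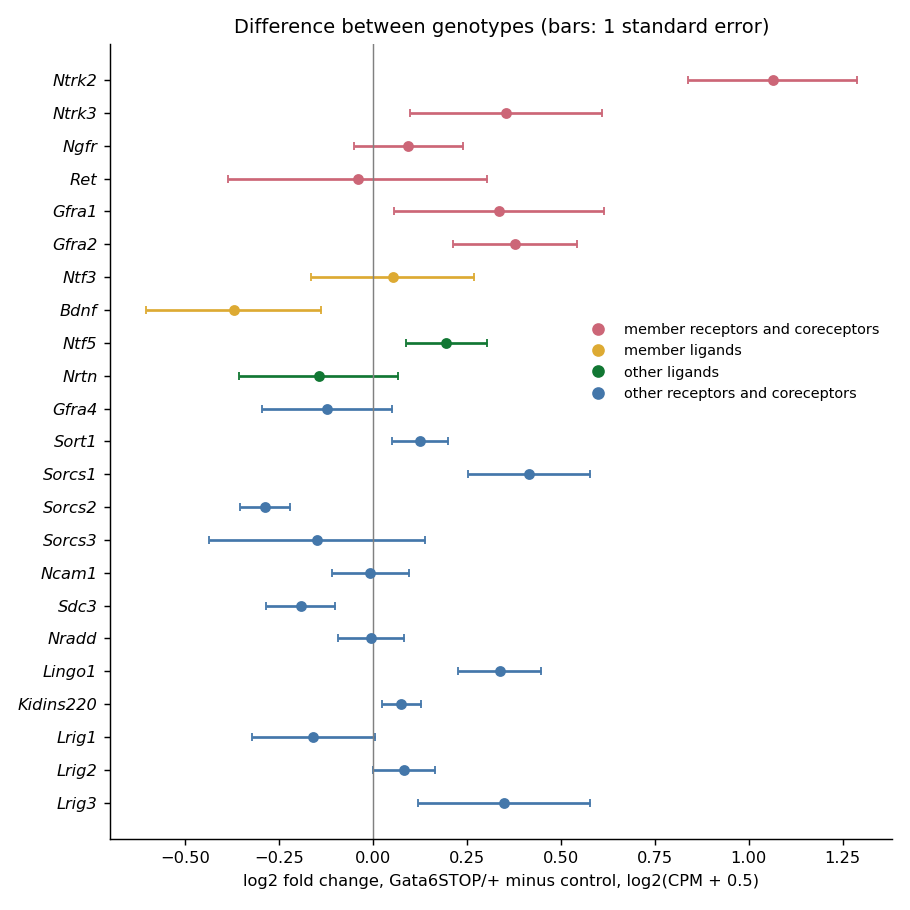
Log2 difference on the log2(CPM+0.5) scale, Gata6STOP/+ minus control, for the members and the other listed ligands and receptors, with bars of 1 standard error. Ntrk2 lies farthest from 0 at 1.06, and the other 22 genes lie between -0.37 and 0.42.

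Downstream, 33 of 35 adaptor genes were listed, with a median log2 difference of 0.03 and extremes of 0.43 for Dok5, a substrate of Ret and Trk kinases (11.3±1.12 and 15.4±1.67 CPM, groups apart, adjusted limma P-value 0.315), and -0.31 for Shc4 (7.05±1.75 and 5.56±1.03 CPM). Of 11 enzymes that cut proneurotrophins or receptors, 10 were listed, with extremes of 0.22 for the shedding protease Adam10 (247±12.4 and 289±17.5 CPM, adjusted limma P-value 0.398) and -0.24 for the proprotein convertase Pcsk6 (54.5±2.54 and 46.3±2.96 CPM, adjusted limma P-value 0.393). The groups of both genes were apart. Of 19 genes that respond to receptor kinase signalling, 17 were listed, 5 higher and 12 lower. Their extremes were 0.08 for Dusp4, a phosphatase of mitogen-activated protein kinases, and -0.40 for the immediate-early gene Arc, both with overlapping groups. Etv4, which lies outside the rule for named genes and is named because it was the 1 response gene called by edgeR's likelihood ratio test (adjusted P-value 0.045), was at 22.0±1.20 and 16.6±1.70 CPM without overlap. Its adjusted limma P-value was 0.260, and none of the other fits run called it.

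The cells in which these receptors are best known were looked for by their markers. Of 15 neural crest and glia genes, 9 were listed, and Foxd3, Fabp7, S100b, Gfap and Mia were among those that were not. In Gata6STOP/+ pools 2 of them were higher and 7 lower, with a median log2 difference of -0.34. Their summed level was 204 to 254 CPM in control pools and 166 to 197 CPM in Gata6STOP/+ pools, which did not overlap. Gata6STOP/+ replicate 1, the pool with the highest Ntrk2, had the highest sum of its group. The gap between the sums rested on 1 gene of the list. That gene was at 22.5, 81.0 and 27.8 CPM in control pools and at 18.6, 17.2, 14.1 and 16.5 CPM in Gata6STOP/+ pools. Without it the sums of the groups overlapped. Sox10, which marks crest and glia, was at 5.32, 2.66 and 2.35 CPM in control pools and at 2.49, 2.54, 2.89 and 2.76 CPM in Gata6STOP/+ pools. Of 20 autonomic neuron genes, 15 were listed, with a sum of 391 to 473 CPM in control and 434 to 490 CPM in Gata6STOP/+ pools, and Phox2a, Dbh, Prph and Chrna3 were among those not listed. The listed genes include Isl1, whose protein the study used to mark heart progenitor cells in the OFT. The sum and counts of this list are therefore not those of neurons alone. Tubb3, a neuronal tubulin, was at 46.2, 26.2 and 40.0 CPM and at 23.7, 27.6, 32.8 and 27.4 CPM. Tubb3 had the lowest log2 difference of its list (-0.39), in which 12 genes were higher and 3 lower in Gata6STOP/+ pools, with a median of 0.11. Outside the rule for named genes, and picked after their values were seen, Th, which encodes the rate-limiting enzyme of catecholamine synthesis, was at 1.32±0.188 and 2.32±0.0838 CPM, and Stmn2, a neuronal microtubule regulator, was at 16.6±2.41 and 22.0±1.62 CPM. These were the 2 of the 15 listed autonomic neuron genes whose groups did not overlap, and their adjusted limma P-values were 0.285 and 0.333. Both lay above control, which was so for 4.31% of all listed genes. Of the 9 listed crest and glia genes, the groups did not overlap for 2. Both of these lay below control, which was so for 4.16% of all listed genes. The sums of endothelial and endocardial genes (776 to 1069 and 853 to 1044 CPM), smooth muscle genes (2480 to 2939 and 2592 to 3454 CPM), cushion mesenchyme genes (1511 to 1984 and 1420 to 1687 CPM) and epicardial genes (442 to 523 and 394 to 545 CPM) overlapped between groups, as did those of red cell genes (2495 to 6020 and 2890 to 7675 CPM). Of 10 pharyngeal epithelium genes, 3 were listed, with sums of 71.0 to 111 and 85.7 to 118 CPM. The part of any of these cells in the members' values was not tested.

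For the 3 members that varied most between pools, the genes with the most similar pattern were sought among the 11627 genes whose mean reached 5 CPM, by the root mean square difference of log2 values centred on each gene's own mean over the 7 pools. For Ntrk2, whose values deviated by 0.630 from their own mean, they were Hpcal4 (0.270), Itga11 (0.300) and Unc5c (0.313). Hpcal4 was at 6.19, 7.35 and 8.85 CPM in control pools and at 20.5, 7.32, 12.6 and 9.97 CPM in Gata6STOP/+ pools. It resembled Ntrk2 in its peak in Gata6STOP/+ replicate 1, but its groups overlapped at replicate 3. Unc5c, a netrin receptor gene, was at 73.9, 95.6 and 90.5 CPM and at 184, 90.4, 117 and 113 CPM, with the same peak and a similar overlap. Itga11, an integrin gene, was at 3.58 to 3.97 CPM in control pools and at 5.90 to 8.95 CPM in Gata6STOP/+ pools, without overlap. For Ret (own deviation 0.485) the nearest were Gm37917 (0.276), Epha3 (0.281) and Lrba (0.294), and for Gfra1 (0.459) they were Lox (0.211), Islr (0.217) and Megf10 (0.223). With 7 pools and this many genes, some patterns are similar without any relation, so these are descriptions.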

How the data were processed

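OFTs of mouse embryos were sequenced as 3 control and 4 Gata6STOP/+ pools, with libraries that keep the strand. Per the methods and the submitters' processing notes, the authors trimmed adapters with cutadapt, quantified genes with RSEM against GRCm38 and the Ensembl annotation, dropped genes that reached 1 CPM in fewer than 3 pools, normalized with TMM in edgeR and deposited CPM values of the scaled library size, 1 column per pool. All 14732 listed genes met that filter. The strand setting of the counting is not given in the sources used here. Antisense genes overlap the models of Ntrk2, Ntrk3, Gfra1 and Bdnf, and none of them is listed, so their reads cannot be told apart from those of the members unless strand was used. In each pool all values were whole multiples of 1 step (tolerance 0.05 reads), which gave the reads behind them. For 3 pools the smallest value stands for several reads, so divisors up to 20 were tried.

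Genes were tested with limma 3.58.1 (R 4.3.3, lmFit and eBayes with trend) on log2(CPM+0.5), two-sided, with no covariate, with Benjamini-Hochberg adjustment across the whole table and a threshold of 0.05. Log2 differences on this scale are too small for genes with few reads. P-values weigh a difference between groups against the spread between these pools, and how much of that spread is technical is not known. Alternatives were a constant of 0.1 or 2, a mean of at least 5 CPM, median-of-ratios scaling, blocking on the replicate number, DESeq2 1.42.0 and edgeR 4.0.16 on the recovered reads, and leaving out each pool. The limma, edgeR and DESeq2 fits were tested on simulated data. The members and lists were chosen with earlier results of these data known. Named genes are all members, all listed other ligands and receptors, the extreme genes of 3 further lists and any past the threshold, the nearest patterns of 3 members, and the leading crest and neuron markers Sox10 and Tubb3. Some items that this rule or the lists hold are not reported here. Exon models and positions came from GENCODE M21. Figures were drawn with matplotlib 3.10.9.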

Additional observations from a re-analysis of the deposited data

How the results depend on the processing

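Of the members, Ntrk2, Ntrk3, Ngfr, Gfra1 and Gfra2 were higher and Bdnf lower in Gata6STOP/+ pools under every alternative run, and signs differed for Ret and Ntf3. Ret was at 0.0042 with a constant of 2, at 0.094 and 0.091 with edgeR's quasi-likelihood and likelihood ratio tests, at 0.092 with DESeq2, and between -0.31 and 0.22 with 1 pool left out. Ntf3 was between -0.16 and 0.26 with 1 pool left out, and -0.16 was the value without control replicate 3. The number of genes past the threshold was 0 in the limma fit, 1 with a constant of 0.1, 88 with DESeq2, 105 with edgeR's likelihood ratio test and 0 to 13 with 1 pool left out, 13 being the count without control replicate 4. The cause was not tested. The Ntrk2 log2 difference was 1.14 with the likelihood ratio test and 1.15 with DESeq2 and with the quasi-likelihood test, and only the first of these called the gene. No fit without 1 pool called it. Since Ntrk2 was chosen on this contrast, its P-values are not given, and nothing is read from its calls.

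The replicate numbers gave no sign of pairing the pools. Deviations from the group means of the same-numbered pools correlated at -0.05, -0.27 and -0.02 over 11627 genes. No pool correlated best with the pool of its own number. With groups of 3 and 4 pools these correlations cannot exclude a pairing, and the labels do not state one. With the replicate block, in which Gata6STOP/+ replicate 1 has no partner and adds nothing to the difference, 14 genes passed with limma, 13 with the quasi-likelihood test and 118 with the likelihood ratio test. The Ntrk2 difference was then 0.86, 0.88 and 0.88, past the threshold in each. Because the gene was chosen on this contrast, nothing is read from these calls. The block also moved the median of the response genes from -0.034 to -0.12 in all 3 fits. That median was -0.12 to -0.0044 with 1 pool left out, lowest without Gata6STOP/+ replicate 1. Requiring a mean of at least 5 CPM left Ntf5 as the only other ligand, so the value of 0.20 for that list is that of a single gene. The same filter dropped Gfra4 and Sorcs3 and moved the median of the other receptors to 0.075. With all listed receptors, that median was -0.019 to 0.077 with 1 pool left out, highest without control replicate 4. The likelihood ratio test called 1 other receptor and 1 response gene, and all other fits, blocked ones included, called 0 of either list. Depth limits Ret, Gfra2 and Ntf3, each with fewer than 100 reads in every pool.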
